A study of Homo sapiens with 9 samples.

Results

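Bile acid handling was followed through 10 listed genes: the nuclear receptors NR0B2 and NR1H4, the synthesis enzymes CYP7A1, CYP8B1 and CYP27A1, and the transporters ABCB11, ABCB4, SLC10A1, SLC51A and SLC51B. They were chosen by symbol with earlier results of these data known, so their shares beside those of all genes are only a description. The probe table named at least 1 probe set of its own for 9 of the 10, with 11 probe sets in all, out of 19775 genes measured. NR1H4 was not analysed here, and 1 probe set that matches both ABCB4 and ABCB1 was left out. The cells were HepG2, a human liver tumour line in long use. They received GW7647, a ligand that activates the fatty acid receptor PPARα, at 100 nM for 24 h or for 6 h, or the solvent DMSO as vehicle. Each group had 3 Affymetrix 3′ expression arrays, 9 in all, and the number of arrays limits the precision of every value. The sources used here do not say how long the vehicle was applied, so the ligand and the time in culture cannot be told apart. The arrays are the expression side of a study of where PPARα sits on promoters, and they compare transcripts after a short and a long exposure.

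Hepatocytes make bile acids from cholesterol. CYP7A1 starts the main route, CYP8B1 steers it towards cholic acid, and CYP27A1 oxidises the sterol side chain and starts an alternative route. Bile acids bind the receptor FXR, encoded by NR1H4, which pairs with RXR and induces NR0B2, also called SHP. NR0B2 is an unusual nuclear receptor without a DNA-binding domain that represses other factors, among them those driving CYP7A1 and CYP8B1. FXR also induces ABCB11, which pumps bile salts into bile, ABCB4, which moves phosphatidylcholine into bile, and SLC51A and SLC51B, the subunits of the exporter OSTα-OSTβ in the basolateral membrane. SLC10A1, also called NTCP, takes bile salts up from blood. PPARα likewise pairs with RXR and is activated by fatty acids.

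The promoters of SLC51A and SLC51B are shown because both subunits of this exporter rose together at 24 h, as described below. Each window holds 300 bases, from 250 before the RefSeq gene start to 50 after it, on GRCh38.p14. SLC51A lies at chr3:196216284-196216583 and SLC51B at chr15:65045137-65045436, both on the plus strand. Capitals mark the 6-letter core AGGTCA to which receptors of the RXR group bind.
SLC51A: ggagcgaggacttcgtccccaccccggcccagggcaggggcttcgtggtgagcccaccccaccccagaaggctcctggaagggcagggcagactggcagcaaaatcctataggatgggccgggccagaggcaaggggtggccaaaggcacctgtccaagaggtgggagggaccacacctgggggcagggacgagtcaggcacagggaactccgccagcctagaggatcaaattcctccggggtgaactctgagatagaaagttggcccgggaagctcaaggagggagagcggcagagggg
SLC51B: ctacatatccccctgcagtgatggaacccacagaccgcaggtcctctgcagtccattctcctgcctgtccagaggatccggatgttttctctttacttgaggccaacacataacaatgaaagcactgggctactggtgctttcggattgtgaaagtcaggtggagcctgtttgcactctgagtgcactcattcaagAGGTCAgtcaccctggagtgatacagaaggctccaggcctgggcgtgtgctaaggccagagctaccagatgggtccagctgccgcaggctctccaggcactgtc
SLC51B held the core once on the plus strand, at bases -54 to -49 from the start, and SLC51A did not hold it. On both strands, 13.8% of the 35116 promoters in the table held AGGTCA. Exact DR1, a pair of cores in the same direction 1 base apart and the arrangement of PPAR with RXR, was in neither window and in 0.0228% of all promoters. Exact IR1, a pair facing each other 1 base apart and the arrangement of FXR with RXR, was in neither window and in 0% of all promoters. With up to 2 letters different, a search added after the exact one, an IR1 pair that takes in the core matched at bases -54 to -42 of SLC51B. ABCB11 (bases -96 to -84) and SLC10A1 (bases -149 to -137) also held such a match, as did 1.12% of all promoters. DR1 was searched in its exact form only, so matches to the DR1 and IR1 arrangements cannot be compared. These matches describe letters only. The exact core was also in SLC10A1 and, on the minus strand, in NR1H4. CYP27A1 was in the table too, while NR0B2, ABCB4, CYP8B1 and CYP7A1 were not found there.

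After 24 h of GW7647, NR0B2 and both subunits of the OSTα-OSTβ exporter were clearly higher than in vehicle. NR0B2 was 1.87-fold higher (95% confidence interval 1.71 to 2.04), SLC51A 1.62-fold (1.32 to 1.99) and SLC51B 1.49-fold (1.32 to 1.69). ABCB4 was 1.18-fold higher (1.07 to 1.30) and only just passed the test. The enzymes CYP7A1, CYP8B1 and CYP27A1 and the transporters ABCB11 and SLC10A1 did not pass. After 6 h, 0 of the 9 genes passed. Bulk RNA does not tell fewer cells with a transcript from less of it per cell.

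In limma's moderated test, with adjustment by Benjamini-Hochberg over all genes, 4 of the 9 rose and 0 fell at 24 h against vehicle. Among all genes 8.17% passed in this comparison, 5.38% upward and 2.8% downward. At an unadjusted p under 0.05 the 9 held 6, against 21.2% of all genes. At 6 h against vehicle 0 of the 9 passed, against 3.54% of all genes, 1.64% upward and 1.91% downward. At an unadjusted p under 0.05 they held 2 there, CYP7A1 and CYP27A1, against 16.3% of all genes. At 24 h against 6 h, 5 of the 9 rose and 0 fell, where 13.8% of all genes passed, 9.23% upward and 4.57% downward. At an unadjusted p under 0.05 they held 6, against 25.9%. Over every probe set, 4.39% passed at 24 h, 1.47% at 6 h and 7.66% between the times. That count of 5 became 3 without 6 h replicate 1, 6 h replicate 2 or 24 h replicate 2. The median log2 change of the 9 was 0.02 at 24 h, -0.08 at 6 h and 0.25 between the times, against 0.0034, 0.0039 and -0.0097 over all genes. Among genes above the median signal, 4 of 5 listed genes passed at 24 h, against 2343 of 9887 genes. At 6 h 1 of these 5 passed, against 1206 of 9887, and between the times 5, against 3407 of 9887. Both comparisons with vehicle share the vehicle arrays.

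**Figure D1:**
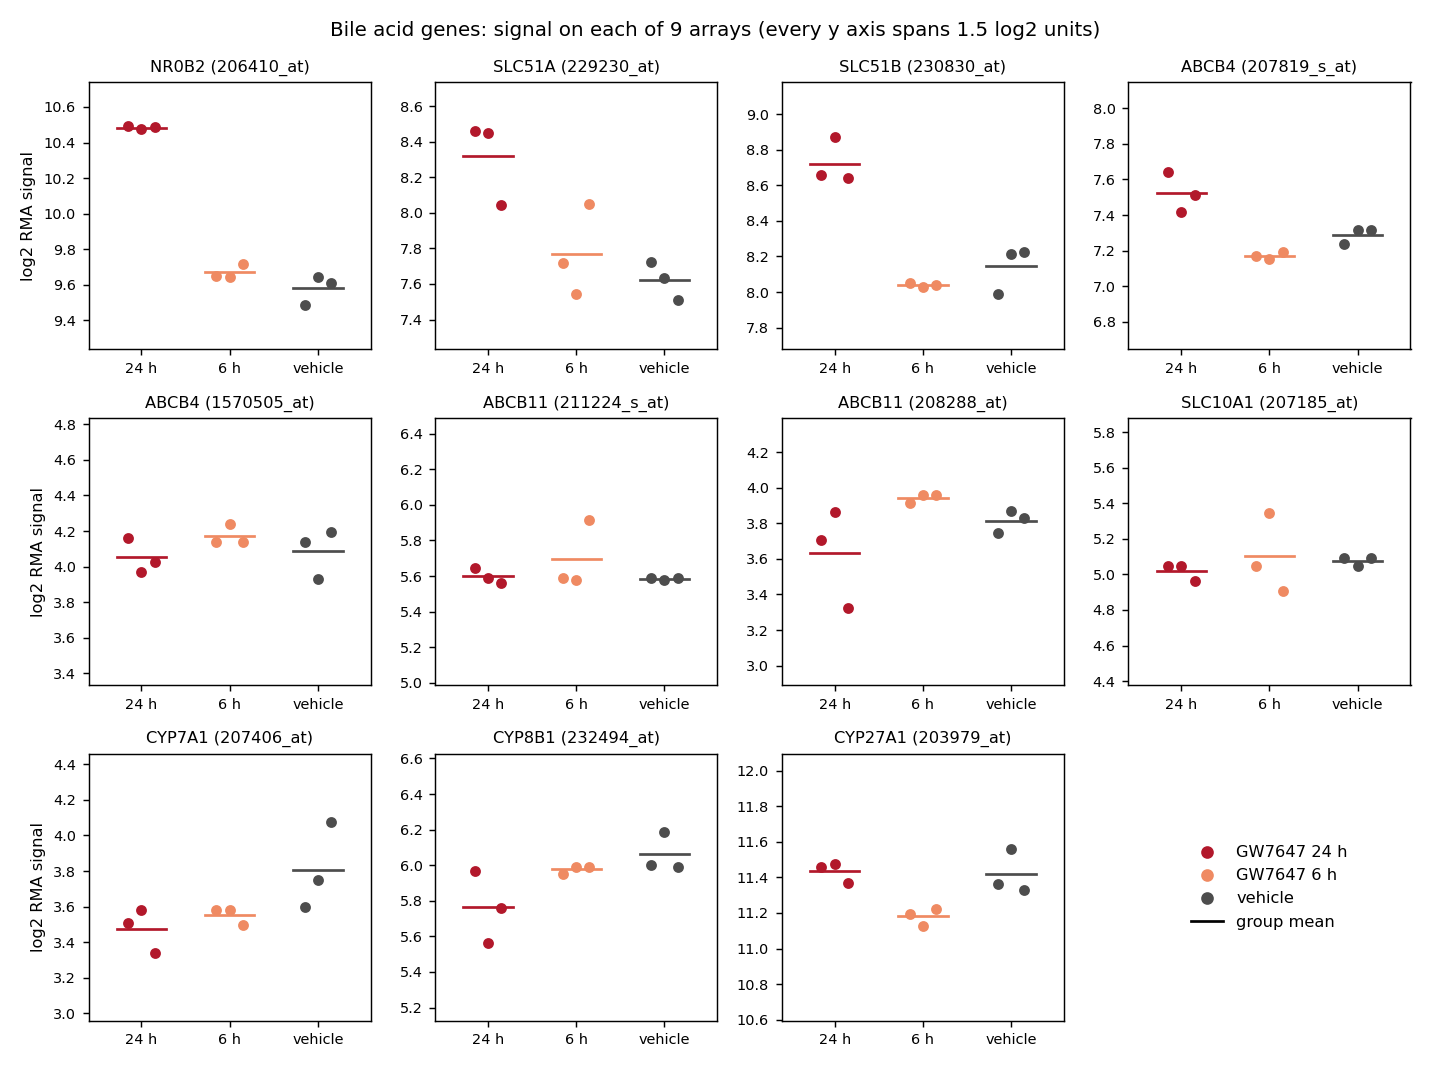
Log2 RMA signal of all 11 probe sets of the bile acid genes on each array, with 1 point per array, a line at the mean of 3 arrays, and columns for GW7647 at 24 h, GW7647 at 6 h and vehicle. Every axis spans 1.5 log2 units, so panels show changes on 1 scale, and the 24 h points of NR0B2 (10.47 to 10.49) and SLC51B (8.64 to 8.87) stand above all other arrays.

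Across genes, which are not independent replicates, the 9 pairs of arrays within a group had correlations of 0.997 to 0.999. The 27 pairs between groups had 0.995 to 0.998. Hepatocyte-like expression was read from 10 hepatocyte markers, whose group means were 9.36 to 14.97 log2 units. Group means of 6 cholangiocyte markers were 4.81 to 12.08 log2 units, so the ranges overlapped. A mark for low signal was set on each array at the 95th percentile of 56 probe sets of 31 genes of unrelated tissues, which came to 6.67 to 6.90 log2 units. NR0B2, CYP27A1, SLC51A, SLC51B and the brighter ABCB4 probe set lay above it on all 9 arrays. CYP7A1, CYP8B1, SLC10A1, both ABCB11 probe sets and the second ABCB4 probe set lay above it on 0 arrays. The mark is rough, because every probe set has its own background. The 3′ minus 5′ signal of GAPDH, a sign of RNA integrity, was 0.018 to 0.022 at 24 h, 0.045 to 0.070 at 6 h and -0.0082 to 0.076 in vehicle. For the actin control it was 0.25 to 0.40, 0.27 to 0.30 and 0.15 to 0.36 in the same order, so those groups overlapped. The summed signal of 6 cholangiocyte markers was 13.41 to 13.53 log2 units at 24 h. It was 13.35 to 13.39 at 6 h and 13.24 to 13.36 in vehicle. Against vehicle, 1 of the 6 rose at 24 h and 1 at 6 h. The summed signal of the hepatocyte markers was 17.36 to 17.40, 17.36 to 17.39 and 17.40 to 17.42 in the same order. Of these 10, 2 fell at 24 h. Among all genes 5.38% rose and 2.8% fell at 24 h, and 1.64% rose at 6 h. The part of RNA integrity and marker levels in the results below was not tested.

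NR0B2, the corepressing receptor, gave 10.49, 10.47 and 10.49 log2 units on the 24 h arrays, 9.65, 9.64 and 9.72 on the 6 h arrays, and 9.49, 9.65 and 9.61 on the vehicle arrays. The 24 h arrays stood far above all others, while the 6 h and vehicle arrays overlapped. Group means were 10.48 ± 0.0086 at 24 h, 9.67 ± 0.041 at 6 h and 9.58 ± 0.084 in vehicle (SD, n = 3 arrays each). The log2 change at 24 h was 0.90 ± 0.06 (SE, limma adjusted p = 5.26e-06), the 47th largest rise among the 19775 genes. Against 6 h, the 24 h level was higher by 0.81 ± 0.06 log2 units (limma adjusted p = 1.33e-05). The 6 h change was 0.09 ± 0.06 (limma adjusted p = 0.495), with an interval of -0.04 to 0.22. NR0B2 has 1 probe set, so no second reading of this transcript was at hand.

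SLC51A encodes OSTα, the larger subunit of the exporter. Its signals were 8.46, 8.45 and 8.04 log2 units at 24 h, 7.72, 7.55 and 8.05 at 6 h, and 7.72, 7.63 and 7.51 in vehicle. All 24 h arrays lay above vehicle, but 24 h replicate 3 lay level with 6 h replicate 3, so these groups overlapped. The log2 change at 24 h was 0.70 ± 0.14 (limma adjusted p = 0.00946). At 6 h it was 0.15 ± 0.14 (limma adjusted p = 0.647), with an interval of -0.15 to 0.45. The 24 h level exceeded the 6 h level by 0.55 ± 0.14 (limma adjusted p = 0.0212). This last call was lost without 6 h replicate 1 or 2 or 24 h replicate 1 or 2, where the adjusted p reached 0.0978. In the test over every probe set, the rise over vehicle passed too (adjusted p = 0.0161), but not without vehicle replicate 3 or 24 h replicate 1 or 2 (adjusted p up to 0.0743).

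SLC51B encodes OSTβ, which OSTα needs to reach the membrane. Its arrays gave 8.66, 8.87 and 8.64 log2 units at 24 h, 8.05, 8.03 and 8.04 at 6 h, and 7.99, 8.22 and 8.23 in vehicle. The 24 h arrays lay above both other groups, and the 6 h arrays lay inside the vehicle range. The log2 change at 24 h was 0.58 ± 0.08 over vehicle (limma adjusted p = 0.00140) and 0.68 ± 0.08 over 6 h (limma adjusted p = 3.23e-04). At 6 h against vehicle it was -0.11 ± 0.08 (limma adjusted p = 0.575). Among all genes the 24 h rises of SLC51A and SLC51B ranked 94th and 141st. Either subunit was read by 1 probe set.

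**Figure D2:**
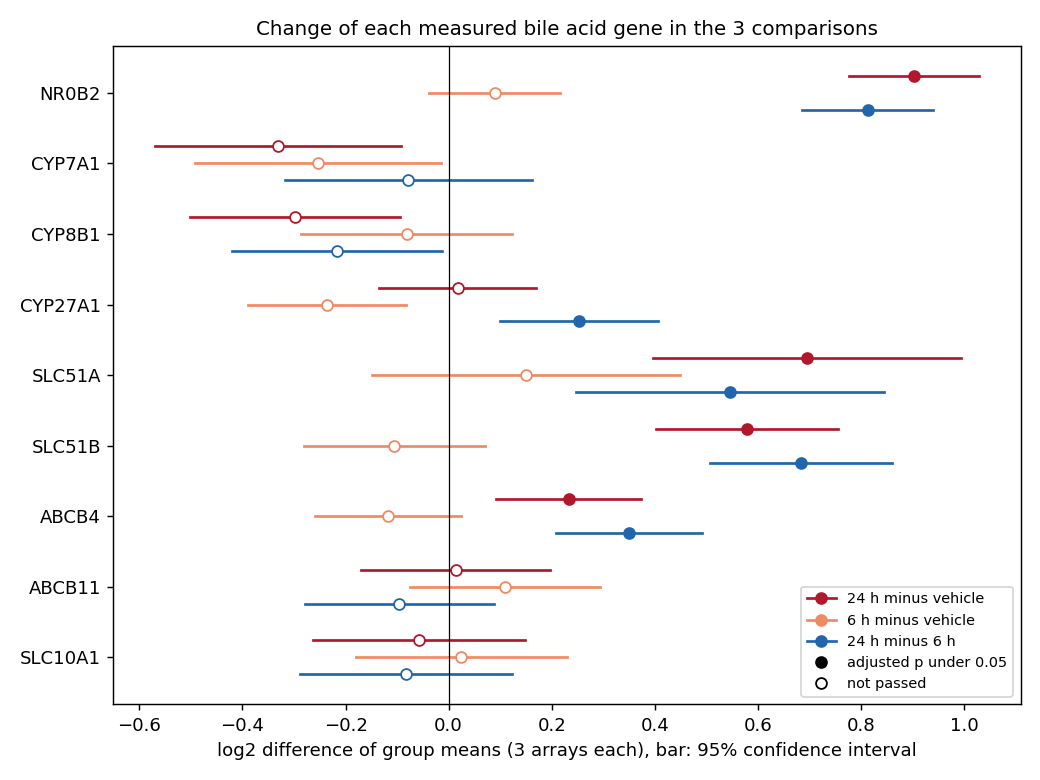
Log2 difference of group means for the 9 measured genes, with a bar for the 95% confidence interval and filled points at an adjusted p under 0.05, for 24 h minus vehicle, 6 h minus vehicle and 24 h minus 6 h. NR0B2, SLC51A, SLC51B and ABCB4 have filled points in both comparisons of 24 h, CYP27A1 only in 24 h minus 6 h, and no 6 h minus vehicle point is filled.

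ABCB4, the phospholipid floppase of the canalicular membrane, had 7.64, 7.41 and 7.51 log2 units at 24 h, 7.17, 7.15 and 7.19 at 6 h, and 7.24, 7.32 and 7.31 in vehicle on its brighter probe set. The 3 groups did not overlap: 24 h was highest and 6 h lowest. The log2 change was 0.23 ± 0.06 at 24 h (limma adjusted p = 0.0489) and -0.12 ± 0.06 at 6 h (limma adjusted p = 0.409). The 24 h call was lost when any array but 24 h replicate 2 was left out (adjusted p up to 0.154), and in the test over every probe set (adjusted p = 0.0865). It was also lost when the third group was left out, after quantile normalization, and with probe sets averaged. The difference of 0.35 ± 0.06 between 24 h and 6 h passed (limma adjusted p = 0.00426), also in the test over every probe set (adjusted p = 0.00940). With both ABCB4 probe sets averaged it was 0.12 and did not pass (adjusted p = 0.269). That probe set ends in _s_at, the mark of probes shared between transcripts. The second ABCB4 probe set, at 3.93 to 4.24 log2 units over the 9 arrays, was below the mark for low signal and had a log2 difference of -0.03 at 24 h (adjusted p = 0.882). Readings of ABCB4 therefore rest on probes that a related transcript could share.

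ABCB11, the bile salt export pump, was below the mark on both probe sets. The brighter one gave 5.65, 5.59 and 5.56 log2 units at 24 h, 5.59, 5.58 and 5.92 at 6 h, and 5.59, 5.58 and 5.59 in vehicle. Apart from 6 h replicate 3, all arrays were nearly level. Its log2 change was 0.01 ± 0.08 at 24 h (interval -0.17 to 0.20, limma adjusted p = 0.952) and 0.11 ± 0.08 at 6 h (limma adjusted p = 0.576). The dimmer probe set had a log2 difference of -0.18 at 24 h (adjusted p = 0.461), opposite in sign to the brighter one.

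SLC10A1, the bile salt uptake carrier, also stayed below the mark, with 5.05, 5.05 and 4.96 log2 units at 24 h, 5.05, 5.35 and 4.91 at 6 h, and 5.09, 5.05 and 5.09 in vehicle. All 3 groups overlapped. The log2 change was -0.06 ± 0.09 at 24 h (interval -0.26 to 0.15, limma adjusted p = 0.791) and 0.02 ± 0.09 at 6 h (limma adjusted p = 0.930). At signals this low, a change in these 2 transporters may not be detectable.

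CYP7A1, the rate-limiting enzyme of the main synthesis route, gave 3.51, 3.58 and 3.34 log2 units at 24 h, 3.58, 3.58 and 3.49 at 6 h, and 3.60, 3.75 and 4.08 in vehicle. Both treated groups lay just below vehicle, whose replicate 3 was the highest array. The log2 change was -0.33 ± 0.11 at 24 h (limma adjusted p = 0.0938) and -0.25 ± 0.11 at 6 h (limma adjusted p = 0.275). The 24 h change passed when vehicle replicate 1 was left out (adjusted p = 0.0413), and every value was below the mark.

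CYP8B1, which directs synthesis to cholic acid, gave 5.97, 5.56 and 5.76 log2 units at 24 h, 5.95, 5.99 and 5.99 at 6 h, and 6.00, 6.18 and 5.99 in vehicle. The 24 h arrays lay below vehicle, 24 h replicate 1 only narrowly. Its log2 change was -0.30 ± 0.09 at 24 h (limma adjusted p = 0.0785) and -0.08 ± 0.09 at 6 h (limma adjusted p = 0.724). Without 24 h replicate 1 the 24 h change passed (adjusted p = 0.0216), again on signals below the mark.

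CYP27A1, the mitochondrial sterol hydroxylase, was well above the mark. It gave 11.46, 11.48 and 11.37 log2 units at 24 h, 11.20, 11.13 and 11.22 at 6 h, and 11.36, 11.56 and 11.33 in vehicle. The 6 h arrays were the lowest and overlapped neither other group, while 24 h and vehicle overlapped. The log2 change was 0.02 ± 0.07 at 24 h (limma adjusted p = 0.925) and -0.24 ± 0.07 at 6 h (limma adjusted p = 0.103). The 6 h change passed with an intensity trend and robust prior, or among genes above the median signal (adjusted p down to 0.0270). Between the times, 24 h was higher by 0.25 ± 0.07 (limma adjusted p = 0.0339). That call was lost without any 1 of the 6 h arrays or 24 h replicate 1 or 2 (adjusted p up to 0.131), after quantile normalization, and in the test over every probe set (adjusted p = 0.0618).

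Among the 9 genes, 6 had arrays at 24 h that did not overlap vehicle, 4 above and 2 below, where 23% of all genes did not overlap. At 6 h against vehicle 3 did not overlap, all below, against 20.8% of all genes. Between 24 h and 6 h, 4 did not overlap, all above, against 33% of all genes.

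Other genes of the pathway were read from 5 lists holding 64 symbols, 56 of them measured. These lists too were chosen with earlier results of these data known. At 24 h against vehicle 5 of them rose and 6 fell, leaving 45 that missed the threshold. These 11 were 19.6% of the list genes, against 8.17% of all genes. At 6 h none rose and 8 fell, leaving 48, which was 14.3% called against 3.54% of all genes. Between 24 h and 6 h, 12 rose and 5 fell, which was 30.4% called against 13.8% of all genes. Among genes above the median signal, 15 of 35 list genes passed at 24 h, against 2343 of 9887 genes. At 6 h 10 of these 35 passed, against 1206 of 9887, and between the times 20, against 3407 of 9887. The median log2 change was -0.0086 at 24 h and -0.09 at 6 h. The 11 calls at 24 h became 7 without vehicle replicate 1, and the 8 at 6 h became 5 without 6 h replicate 2. With the same arrays left out, the counts over all genes went from 1616 to 1076 and from 701 to 261.

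Of 11 further synthesis enzymes, 0 rose and 2 fell at 24 h, where 2.8% of all genes fell. At 6 h 0 passed by limma, where 3.54% of all genes did. At an unadjusted p under 0.05 they held 2 there, against 16.3% of all genes. AKR1D1, the reductase that gives the steroid ring of bile acids its bent shape, had 7.15, 7.55 and 7.15 log2 units at 24 h, against 8.07, 7.89 and 7.97 in vehicle. It fell by 0.69 ± 0.10 log2 units (limma adjusted p = 0.00170), and its 24 h arrays lay below all others. AKR1C4, which acts after it, changed by -0.36 ± 0.09 (limma adjusted p = 0.0393) on a signal of 5.18 at 24 h and 5.53 in vehicle, and was below the mark for low signal on all 9 arrays. Leaving out 6 h replicate 2, 24 h replicate 1 or 3, or a vehicle array of any number ended the AKR1C4 call (adjusted p up to 0.132), and so did either rescaling of the arrays. Of 6 genes of conjugation and detoxification, 0 passed at 24 h, with 3 at an unadjusted p under 0.05. Among all genes 8.17% passed there and 21.2% had an unadjusted p under 0.05. At 6 h 1 of the 6 fell, where 1.91% of all genes fell. SULT2A1, the sulfotransferase of bile acids and steroids, was the 1 that fell at 6 h, by 0.40 ± 0.06 (limma adjusted p = 0.00585). It had 10.36, 10.31 and 10.26 log2 units at 6 h, against 10.73, 10.80 and 10.61 in vehicle.

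Of 13 other bile transporters, 1 rose and 2 fell at 24 h, and 0 rose and 2 fell at 6 h. Among all genes 5.38% rose and 2.8% fell at 24 h, and 1.64% rose and 1.91% fell at 6 h. ABCC2, the canalicular pump for conjugated organic anions, changed by -0.52 ± 0.06 at 24 h (limma adjusted p = 6.15e-04) and -0.28 ± 0.06 at 6 h (limma adjusted p = 0.0361). ABCB1, a drug efflux pump closely related to ABCB4, changed by -0.59 ± 0.05 at 24 h (limma adjusted p = 6.90e-05) and -0.24 ± 0.05 at 6 h (limma adjusted p = 0.0339). Its signals of 8.12, 8.09 and 8.13 log2 units at 24 h lay below 8.72, 8.64 and 8.75 in vehicle, opposite to the brighter ABCB4 probe set. Both 6 h calls were fragile. That of ABCC2 was lost without vehicle replicate 2 or 3, any 1 of the 6 h arrays or 24 h replicate 1 (adjusted p up to 0.125). That of ABCB1 was lost without vehicle replicate 1 or 3, any 1 of the 6 h arrays or 24 h replicate 1 or 3 (adjusted p up to 0.126), and a second ABCB1 probe set had differences of 0.03 at 6 h and -0.24 at 24 h (adjusted p = 0.105). ABCG5, part of the sterol exporter of the canalicular membrane, was higher at 24 h by 0.33 ± 0.06 (limma adjusted p = 0.0105). ABCG8, of the same family and list, did not pass at 24 h and was below the mark on 8 of 9 arrays. It gave 6.49, 6.62 and 6.74 log2 units at 24 h, against 6.58, 6.98 and 6.77 in vehicle.

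**Figure D3:**
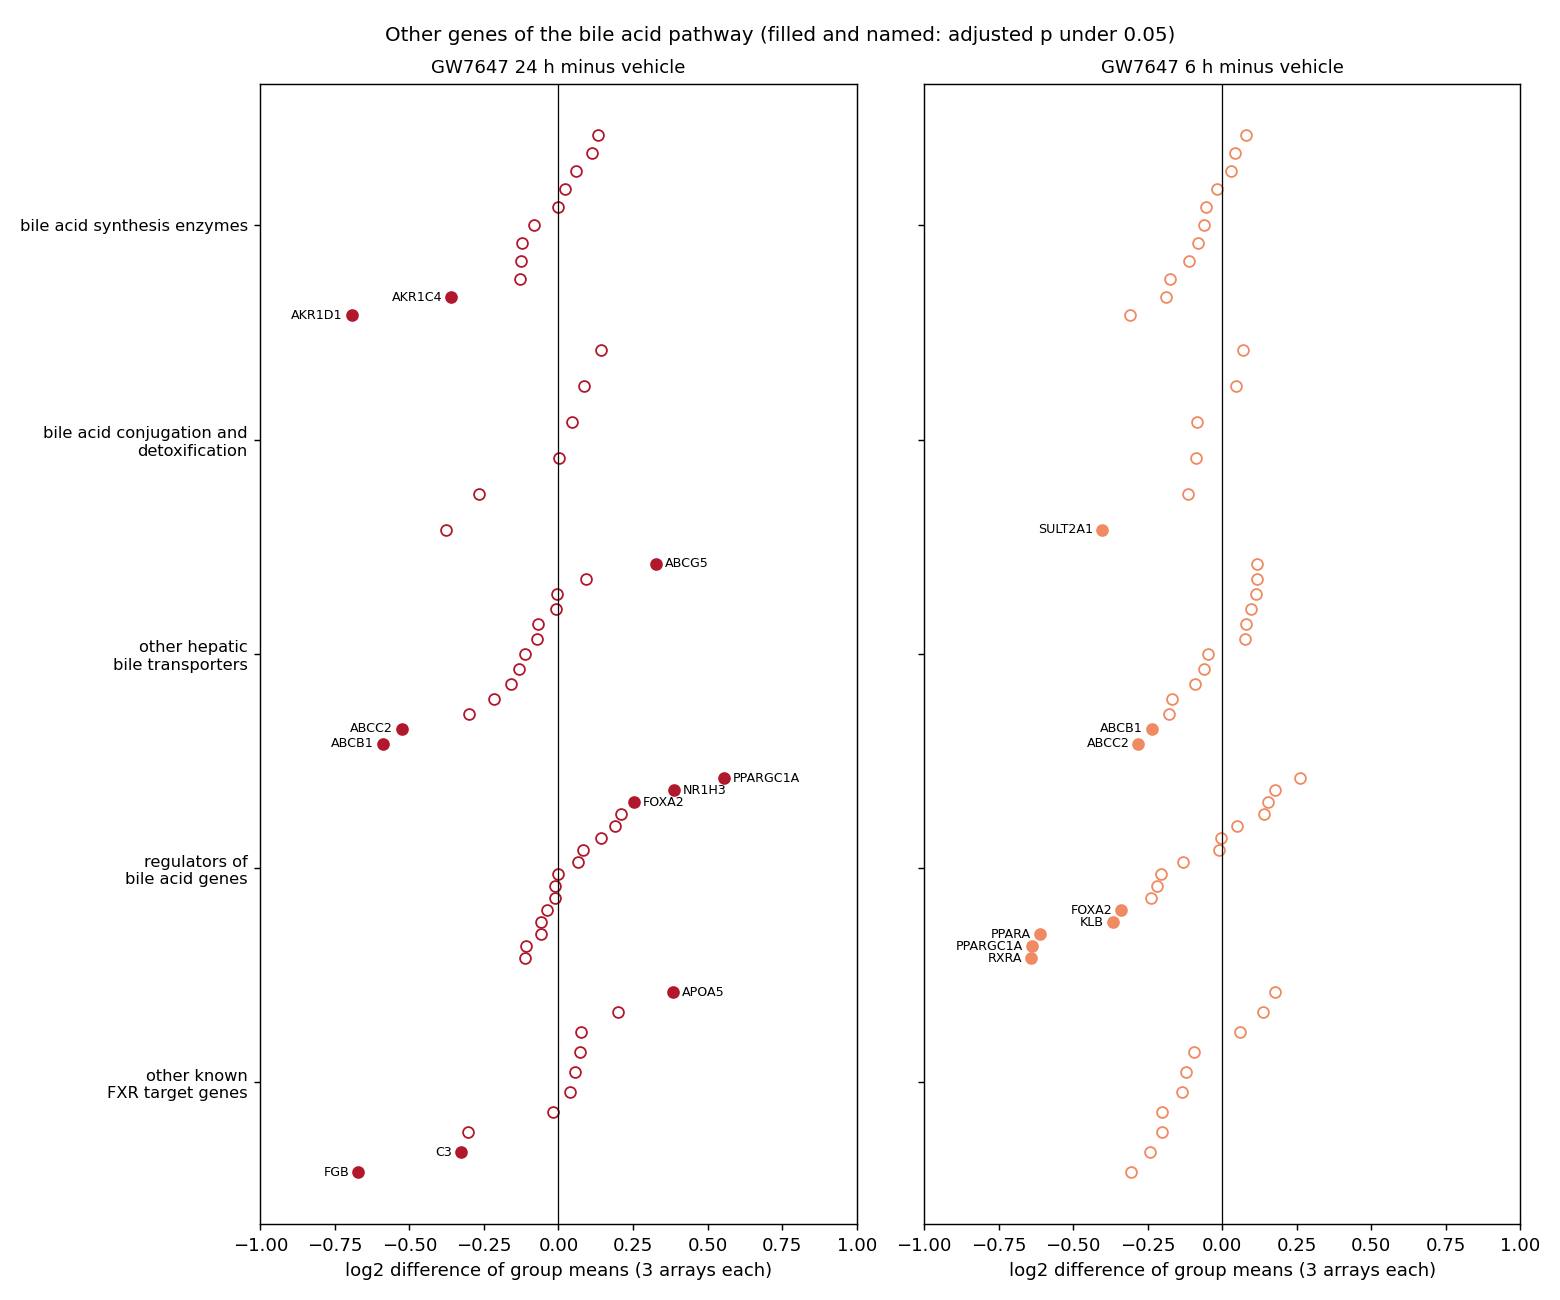
Log2 difference of group means for the other genes of the bile acid pathway in 5 lists, with GW7647 24 h minus vehicle on the left and 6 h minus vehicle on the right, 1 point per gene, filled and named at an adjusted p under 0.05. At 24 h the filled points lie on both sides of 0, and at 6 h all 8 lie below 0.

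Of 16 regulators of these genes, 0 rose and 5 fell at 6 h, where 1.91% of all genes fell. At 24 h 3 rose and 0 fell, where 5.38% of all genes rose. PPARGC1A, a coactivator of hepatic nuclear receptors, had 5.75, 5.58 and 5.48 log2 units at 6 h, against 6.40, 6.18 and 6.14 in vehicle. At 24 h its signals of 6.74, 6.93 and 6.72 lay above vehicle, and the difference between the times was 1.19 ± 0.09 (limma adjusted p = 2.11e-05). PPARGC1A lay below the mark for low signal on 8 of the 9 arrays, so the size of its differences is uncertain. A second PPARGC1A probe set had differences of 0.03 at 6 h and -0.05 at 24 h. RXRA, the partner of both FXR and PPARα, fell by 0.64 ± 0.07 at 6 h (limma adjusted p = 7.36e-04), and its difference at 24 h was -0.06 ± 0.07 (limma adjusted p = 0.696). A second RXRA probe set had a difference of -0.14 at 6 h (adjusted p = 0.495). KLB, the co-receptor for the ileal hormone FGF19, fell by 0.37 ± 0.05 at 6 h (limma adjusted p = 0.00364) and had a difference of -0.013 at 24 h (limma adjusted p = 0.928). NR1H3, the oxysterol receptor LXRα, had a rise of 0.39 ± 0.10 at 24 h (limma adjusted p = 0.0375), which was lost without any 1 array except vehicle replicate 2 (adjusted p up to 0.118). PPARA changed by -0.61 ± 0.06 at 6 h (limma adjusted p = 3.31e-04), and its difference of -0.06 at 24 h did not pass. The other PPARA probe sets had differences from -0.74 to -0.01 at 6 h, and not all of them passed in the test over every probe set. FOXA2, a hepatocyte pioneer factor, changed by -0.34 ± 0.06 at 6 h (limma adjusted p = 0.0132) and 0.25 ± 0.06 at 24 h (limma adjusted p = 0.0290). The FOXA2 call at 6 h was lost without 6 h replicate 2 (adjusted p = 0.0720) and when shared probes were left out (adjusted p = 0.293), and that at 24 h without 24 h replicate 1 or 2 or any single vehicle array (adjusted p up to 0.0983). Both FOXA2 calls were also lost with its probe sets averaged, at -0.19 for 6 h (adjusted p = 0.142) and 0.19 for 24 h (adjusted p = 0.0968). Of its other probe sets, 1 had differences of -0.02 at 6 h and -0.05 at 24 h, and 1 had -0.21 at 6 h and 0.36 at 24 h.

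Of 10 other known FXR targets, 1 rose and 2 fell at 24 h, where 8.17% of all genes passed. At 6 h 0 passed by limma, with 6 at an unadjusted p under 0.05, where 16.3% of all genes were. APOA5, an activator of lipoprotein lipase and also a PPARα target in human cells, had 9.02, 9.20 and 9.06 log2 units at 24 h, against 8.61, 8.78 and 8.74 in vehicle. Its change of 0.39 ± 0.08 passed (limma adjusted p = 0.0157), but the adjusted p reached 0.0661 when vehicle replicate 1 or 24 h replicate 2 was left out. The fibrinogen chain FGB, also counted among the hepatocyte markers, fell by 0.67 ± 0.06 (limma adjusted p = 6.87e-05) and complement C3 by 0.33 ± 0.05 (limma adjusted p = 0.00408). FXR targets outside the 10 listed genes therefore had values on both sides of 0.

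The genes most alike NR0B2 over the 9 arrays were found by Pearson correlation among 9886 genes above the median signal. They were YARS1 (0.998), GARS1 (0.997) and CARS1 (0.994), which charge transfer RNAs with tyrosine, glycine and cysteine, SHMT2 (0.997), which splits serine in mitochondria, and PCK2 (0.996), the mitochondrial phosphoenolpyruvate carboxykinase. The most opposite were the chromatin helicase HELLS (-0.993), the ketosteroid reductase AKR1C2 (-0.990) and the adhesion protein ALCAM (-0.990). These values describe the 9 arrays, which share their 3 treatment groups, and the gap of the 24 h arrays to the rest sets most of each. At 24 h against vehicle, YARS1 rose by 1.04 ± 0.06, PCK2 by 1.03 ± 0.06, CARS1 by 1.06 ± 0.06, GARS1 by 0.87 ± 0.05 and SHMT2 by 0.81 ± 0.06 log2 units, beside 0.90 ± 0.06 for NR0B2. ALCAM changed by -0.64 ± 0.06, HELLS by -0.29 ± 0.05 and AKR1C2 by -0.21 ± 0.05. On a probe set without shared probes the difference of YARS1 was 0.22 in place of 1.04 and did not pass (adjusted p = 0.0917), and AKR1C2 did not pass without vehicle replicate 1 or any 1 of the 24 h arrays (adjusted p up to 0.0581).

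**Figure D4:**
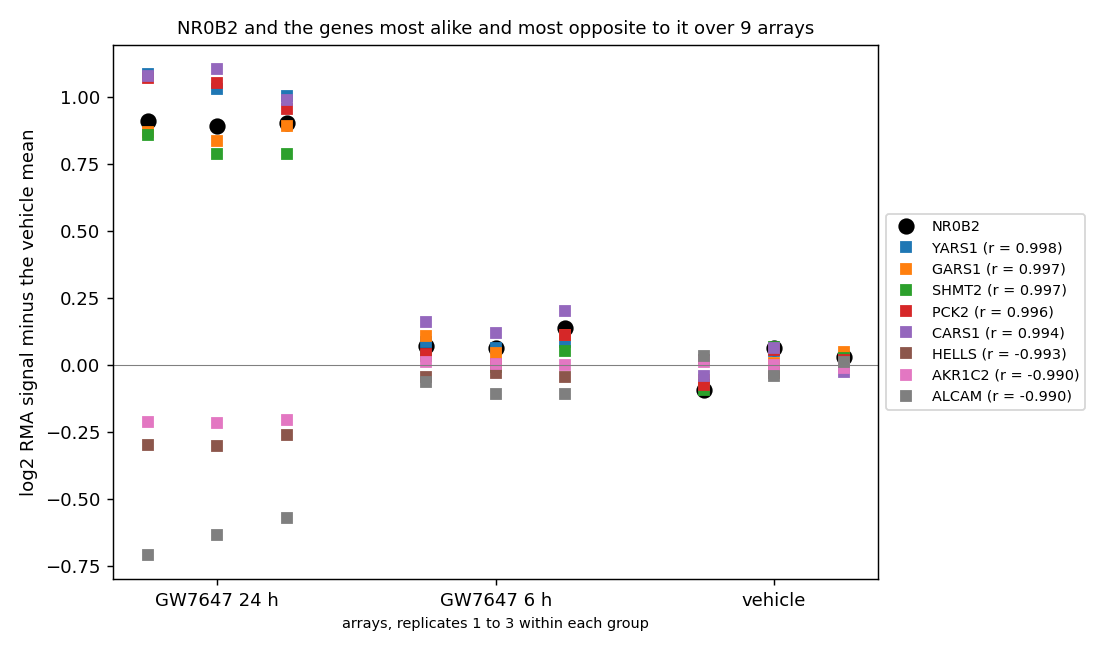
Log2 RMA signal minus each gene's vehicle mean on the 9 arrays, for NR0B2, the 5 genes most alike and the 3 most opposite by Pearson correlation, grouped as GW7647 24 h, GW7647 6 h and vehicle. The 24 h arrays of NR0B2 (mean 10.48, vehicle mean 9.58) move with the 5 alike genes, while the changes at 6 h run from -0.09 (ALCAM) to 0.16 (CARS1).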

How the data were processed

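RNA of 9 HepG2 samples was hybridised to 1-colour Affymetrix 3′ arrays. The authors deposited log2 values per probe set, made with RMA per the submitters' processing notes, which as a method corrects background, brings all arrays to 1 distribution and summarises probes. The sources used here do not name its software or chip definition. The values ran from 2.66 to 15.02, with array medians of 5.61 to 5.68 and 0 missing, and were used unchanged, with no filter on signal.

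Samples were grouped by their titles. Nothing says that replicates are separate cultures, so the p-values speak only for the spread among these samples, possibly a technical one. Of 54675 probe sets, 62 were controls and 41091 others had 1 symbol, 1801 several and 11721 none. The probe set of highest mean stood for its gene, giving 19775 genes. limma 3.58.1 in R 4.3.3 fitted group means over all 9 arrays (lmFit, eBayes, 11.0 total degrees of freedom), two-sided, adjusted by Benjamini-Hochberg and called at an adjusted p under 0.05. A fit of every probe set that is not a control (54613) gave the probe set values. The 3 comparisons were 24 h and 6 h against vehicle and 24 h against 6 h. With 3 arrays a side, exact permutation could reach 0.10 at best. The fit was tested on simulated data.

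The members, lists and tests were chosen with earlier results of these data known. The text names all listed genes, up to 6 genes per list and comparison that passed, and the 5 genes most alike and 3 most opposite to NR0B2. ABCG8, which did not pass at 24 h, was added beside ABCG5. Promoters came from RefSeq on GRCh38.p14, and 6 of the 10 symbols matched. Alternatives were a replicate block, only the compared groups, a trend with robust prior, genes above the median signal, averaged probe sets, no shared probes (_x_at, _s_at), quantile normalization, median centring, an adjusted p under 0.01, and leaving out each array.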

Additional observations from a re-analysis of the deposited data

Results flagged for a closer look

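Signals of 5 of the 9 genes differed between the 24 h and the 6 h arrays, by limma's test of 24 h minus 6 h. Among all genes 13.8% passed this test. With no vehicle arrays for each time, the ligand and the time in culture cannot be told apart here. The log2 differences were 0.81 for NR0B2, 0.68 for SLC51B, 0.55 for SLC51A, 0.35 for ABCB4 and 0.25 for CYP27A1. As given above, those of SLC51A and CYP27A1 did not pass without some single arrays, the second ABCB4 probe set had a difference of -0.12, and ABCB4 did not pass with both probe sets averaged.

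Among the named genes of the pathway lists the same test passed upward for PPARGC1A (1.19), FOXA2 (0.59), APOA5 (0.59), RXRA (0.58), PPARA (0.55), SULT2A1 (0.54), FGFR4 (0.43), ABCG5 (0.42), NR1H3 (0.40) and SDC1 (0.31). KLB (0.35) and CEBPB (0.40) passed upward too, beyond the 6 genes named per list and comparison. PPARGC1A was below the mark for low signal on 8 of 9 arrays. The test passed downward for AKR1D1 (-0.77), FGB (-0.54), ABCB1 (-0.35), ABCC2 (-0.24) and C3 (-0.20). Altogether 17 of the 56 measured list genes passed it, 30.4%, against 13.8% of all genes. The difference of ABCC2 did not pass without 6 h replicate 1 or 2 or 24 h replicate 1 or 2 (adjusted p up to 0.0940). That of NR1H3 did not without 6 h replicate 1 or 2 or 24 h replicate 1 or 3 (up to 0.0925), and that of C3 without any 1 of the 6 h or 24 h arrays (up to 0.111). SDC1 did not pass on its probe set without shared probes (0.508). Groups of 3 arrays were not searched for outlying samples.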

How the results depend on the processing

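The rises of NR0B2 (0.86 to 0.94 log2 units), SLC51A (0.62 to 0.83) and SLC51B (0.50 to 0.62) at 24 h over vehicle passed in all 18 alternatives of the gene test, the highest adjusted p being 2.06e-04, 0.0445 and 0.0109. Counts of the listed genes called at 24 h, at 6 h and between the times were 4, 0 and 5. At an adjusted p under 0.01 they became 3, 0 and 3. The 24 h count was also 3 with only the compared groups, averaged probe sets, no shared probes or quantile normalization. At 6 h against vehicle the count became 1 with an intensity trend or among genes above the median signal. With 1 array left out these counts were 3 to 4, 0 and 3 to 5. Without vehicle replicate 1 or 24 h replicate 1, the 4 called at 24 h were 3 that rose and 1 that fell. With a replicate block the counts were 3, 0 and 4. The labels do not state that replicate numbers pair the samples. Of 9 same-numbered pairs, 0 had deviations correlated above 0.1 (-0.20 to 0.086). Pairs of different numbers were not compared, so these values cannot settle whether samples were paired. Pathway genes called at an adjusted p under 0.01 were 6 at 24 h and 5 at 6 h, and with 1 array left out 7 to 11 and 5 to 8.

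Counts over all genes at 6 h (701 of 19775) became 427 with the replicate block, 454 with only the compared groups and 1104 with the trend. They became 1206 of 9887 above the median signal, 454 of 17098 without shared probes and 234 at an adjusted p under 0.01. With 1 array left out they were 261 to 637. At 24 h (1616) they became 921 with only the compared groups, 695 at 0.01 and 1005 to 1664 with 1 array left out. Between the times (2729) they became 1774 of 17098 without shared probes, 1328 at 0.01 and 1519 to 3082 with 1 array left out.

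Signs turned for few values. Without shared probes, ABCB4 read -0.035 at 24 h, 0.085 at 6 h and -0.12 between the times, ABCB11 read -0.18 at 24 h and AKR1C2 0.10. With probe sets averaged ABCB11 read -0.084 at 24 h. After quantile normalization CYP27A1 read -0.013 at 24 h. With 1 array left out, CYP27A1 ran from -0.027 to 0.088 at 24 h. ABCB11 ran from -0.011 to 0.033 at 24 h, -0.0016 to 0.17 at 6 h and -0.15 to 0.016 between the times. SLC10A1 ran from -0.098 to 0.12 at 6 h and -0.18 to 0.040 between the times, and the dim ABCB4 probe set from -0.11 to 0.017 at 24 h. Apart from the probe sets without shared probes, which are other probe sets of the same gene, the cause was not tested. Signal over background limits CYP7A1, CYP8B1, ABCB11 and SLC10A1, and among the named pathway genes AKR1C4, ABCG8 and PPARGC1A.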
